A study of Mus musculus with 6 samples.

Results

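The serpin genes Serpinb1a, Serpinb1b, Serpinb1c, Serpine2 and Serpinc1, are described here across 6 arrays of mouse T cells that either lack a working Irf4 gene or keep 1 copy of it. They were chosen by name: each probe that the authors' deposited table of results labels with one of these 5 symbols was taken, and each is shown apart. These 5 genes, of 689 symbols in the table, had 7 probes, out of 816 probes with a symbol and 22749 probes with values. Serpinb1b and Serpinb1c had 2 probes each. The table holds only probes that the authors had already selected for a change of over 2-fold with an unadjusted p under 0.05 between these same samples, so a difference in each of the 7 was a condition of being seen, and any further probe of these genes is among the unnamed ones.

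The tested cells were Irf4 -/- and the controls Irf4 +/-, so the controls carried 1 mutant copy themselves. Both were on the C57BL/6J background, and both started as naive CD4+ CD62L-high CD25-negative T cells from spleen. For 42 h they were kept on plate-bound anti-CD3 with TGF-beta, IL-23, IL-6, anti-CD28 and blocking antibodies to interferon gamma and IL-4, a mixture that drives T cells toward the Th17 fate. There were 3 samples of each genotype, called biological replicates in the design text. The sources used here give neither the deleted part of Irf4, nor the age or sex of the mice, nor whether replicates were separate animals, so p-values reflect only how far these samples scatter, which may be technical. The label of heterozygous replicate 3 carries 1 free-text genotype that can be read either way, but its title and genotype field agree on +/-.

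Each value is a log2 ratio of the sample to a commercial pool of mouse RNA, so 0 means the level of that pool and 1 unit is a doubling. All arrays had 22749 values, with medians from -0.03 to 0.06. Exact zeros made up 5.28%, 3.77% and 2.22% of null replicates 1, 2 and 3, and 1.71%, 0.673% and 3.24% of heterozygous replicates 1, 2 and 3, but none of the 7 serpin probes held one. Correlations across probes were 0.915 to 0.961 among null arrays and 0.952 to 0.964 among heterozygous arrays. Between the genotypes they were 0.882 to 0.937, and this range overlaps that of the null arrays. Irf4 itself fell in null cells to a mean of 0.67, against 2.93 in heterozygous cells (limma adjusted p = 0.00217), and its groups did not overlap. Of the 8 T cell markers looked for, only Cd28 had a named probe. That probe read an exact 0, 0.32 and an exact 0 on null arrays, against 0.78, 1.07 and 2.16 on heterozygous arrays. Its log2 fold change of -1.23 did not pass (limma adjusted p = 0.139). The defining genes Cd3e and Cd4 were not named, so the labelled cell type could not be checked. Of 13 markers of neutrophils, cells rich in Serpinb1a in mice, 0 were named, and the part of such cells in these results was not tested. Of 5 markers of NK and CD8 cells, Klre1 and Cd8a were named. Klre1, which encodes an NK cell receptor, read 1.12, an exact 0 and -0.55 on null arrays, against 3.01, 4.66 and 3.62 on heterozygous arrays. It fell by 3.57 on the log2 scale (limma adjusted p = 0.0333), in the direction of 4 of the 5 Serpinb1 probes and by more than any serpin probe, and did not pass with exact zeros taken as missing (0.0753) or in 5 of the 6 fits without 1 sample. Cd8a read 4.71, 4.28 and 4.75 on null arrays, against 3.34, 4.003 and 2.53 on heterozygous arrays, and did not pass (1.29, limma adjusted p = 0.136). The part of these cells in the results was not tested.

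Serpins are protease inhibitors that act once. The protease cleaves an exposed loop of the serpin, which then snaps shut and holds the protease in a covalent complex. The Serpinb1 proteins belong to the intracellular clade B. Human SERPINB1 is a potent inhibitor of the neutrophil proteases elastase, cathepsin G and proteinase 3, and the mouse has the close paralogs Serpinb1a, Serpinb1b and Serpinb1c in its place. In mice, Serpinb1a has also been studied as a gene expressed in Th17 cells. Serpinc1 encodes antithrombin, the plasma inhibitor of thrombin and factor Xa, and Serpine2 encodes protease nexin 1, an inhibitor of thrombin and urokinase bound to cell surfaces and matrix. Transcripts of similar paralogs can share a probe, so values of the Serpinb1 genes are uncertain as to which paralog they report. Probe sequences were not used here, and cross-hybridization was not tested.

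Serpinb1b and 1 of the 2 Serpinb1c starts that RefSeq gives are alike in the bases before them. The windows below are shown because the probes of Serpinb1b and Serpinb1c include the pair of serpin probes whose values were most alike. Of the 2 Serpinb1c windows, the one with more bases identical to Serpinb1b in a local alignment was picked. Each holds the 250 bases before a RefSeq start, from GRCm38.p6, and capitals mark the block over which the windows align.
Serpinb1c (chr13:32898141-32898390, minus strand): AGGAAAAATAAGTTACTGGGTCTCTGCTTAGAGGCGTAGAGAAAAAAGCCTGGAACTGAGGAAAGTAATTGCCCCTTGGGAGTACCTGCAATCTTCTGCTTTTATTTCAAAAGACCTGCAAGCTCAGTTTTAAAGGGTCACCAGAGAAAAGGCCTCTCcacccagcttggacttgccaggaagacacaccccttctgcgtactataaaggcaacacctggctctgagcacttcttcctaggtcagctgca
Serpinb1b (chr13:33083853-33084102, plus strand): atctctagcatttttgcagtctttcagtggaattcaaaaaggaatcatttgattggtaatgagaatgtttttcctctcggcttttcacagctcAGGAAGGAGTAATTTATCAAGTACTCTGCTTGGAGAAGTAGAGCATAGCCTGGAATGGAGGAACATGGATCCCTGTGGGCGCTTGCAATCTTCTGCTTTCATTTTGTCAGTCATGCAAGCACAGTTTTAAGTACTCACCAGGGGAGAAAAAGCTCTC
In a local alignment, 115 of 152 aligned bases were identical (75.7%), a share that leaves out 11 gap positions. No other pair of windows among the 5 that RefSeq gives for Serpinb1b, Serpinb1c, Serpine2 and Serpinc1 aligned over more than 49 bases. The other Serpinb1c window aligned over 25 bases with Serpinb1b and over 49 with the printed Serpinb1c window. No Serpinb1a window was used here. The block runs up to the start in Serpinb1b and lies farther upstream in Serpinb1c.

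Interferon regulatory factors bind DNA through GAAA, and IRF4 binds best where a partner, an ETS or AP-1 protein, sits beside it. Both strands were searched, and overlapping matches were counted. Each printed window held 5 matches to GAAA, a motif present in 86.4% of 32851 promoter windows of the same length, and all 5 serpin windows held at least 1. None of the 5 held the double motif GAAANNGAAA (2.98% of all windows), the ETS-type composite GGAANNGAAA (2.30%), the AP-1 motif TGANTCA (6.75%) or the AP-1 composites TGANTCANNNNGAAA (0.0974%) and GAAATGANTCA (0.1005%). This says only that these letters are not in these windows.

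Of the 7 serpin probes, 5 were lower and 2 higher in null than in heterozygous cells. In all, 3 passed the threshold, a limma Benjamini-Hochberg adjusted p under 0.05 over all 22749 probes, and all 3 were lower in null cells: both Serpinb1c probes and Serpinc1. The threshold was passed by 3.19% of all probes, 1.56% lower and 1.63% higher in null cells, and by 58.8% of the 816 probes with a symbol, 28.2% lower and 30.6% higher in null cells. The groups did not overlap for any of the 7, which also held for all 816 selected probes with a symbol and for 30.2% of all probes, so nothing can be read from that count. The median log2 fold change of the 7 was -1.68, beside -1.01 for all probes with a symbol and -0.05 for all probes. The probes with a symbol were selected for a change of over 2-fold, so their median lies at the edge of that filter. It is not a typical change of these probes. With 5 of the 7 lower, the sign of their median was set by that count, so the medians do not show a larger fall of the serpins. All 7 had an unadjusted limma p under 0.05, as did 4731 of all probes. Of the 5 genes, Serpinb1c was the 1 with 2 probes past the threshold in the same direction.

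**Figure D1:**
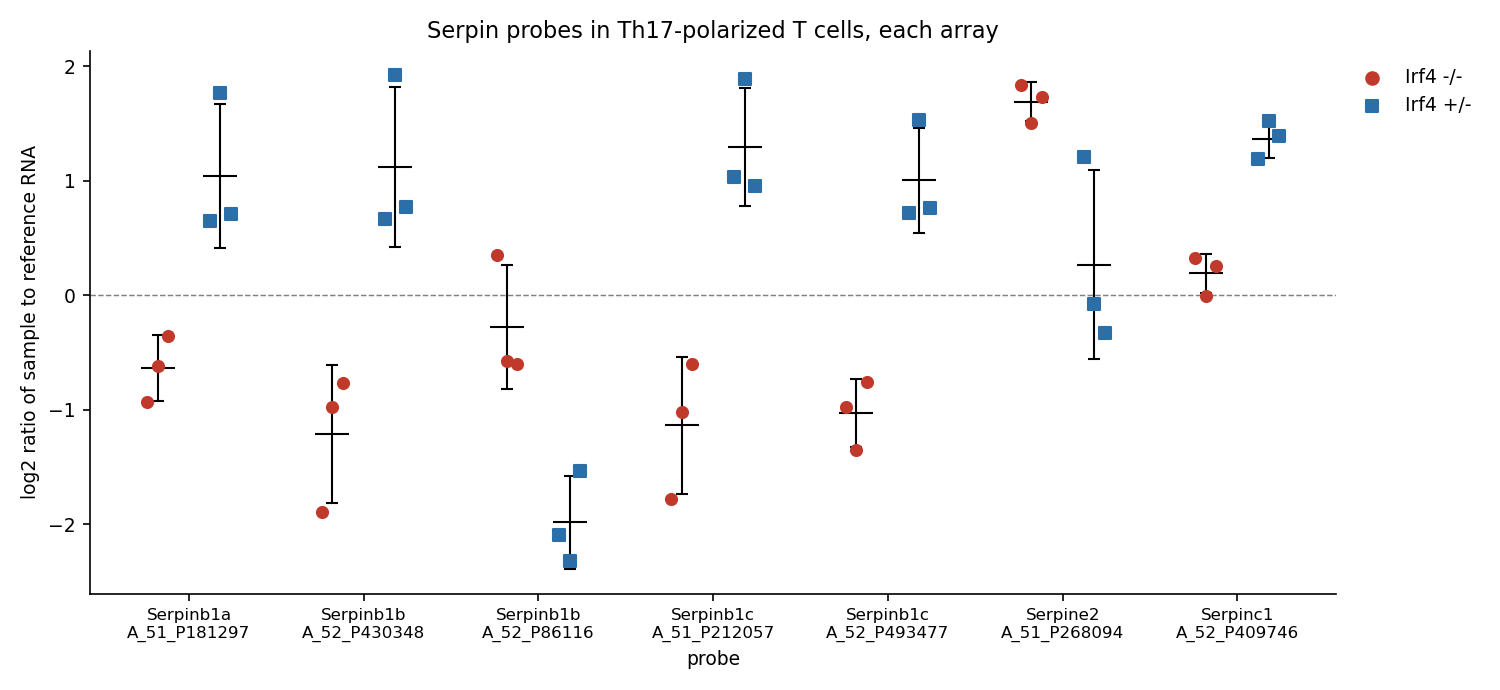
Log2 ratios of sample to reference RNA (vertical axis) for the 7 serpin probes (horizontal axis) on each array. Red circles are the 3 Irf4 -/- arrays and blue squares the 3 Irf4 +/- arrays, in replicate order from left to right, with black bars for the mean and SD. Of the 5 Serpinb1 probes, 4 lay below 0 on each null array and above 0 on each heterozygous array, and the other Serpinb1b probe had the opposite order.

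Serpinb1c had the largest fall among the serpins. Probe A_51_P212057 read -1.78, -1.02 and -0.60 on the null arrays, against 1.04, 1.89 and 0.96 on the heterozygous arrays, here and below in the order of replicates 1, 2 and 3. Every null array was below the reference pool and every heterozygous array above it, with a gap of 1.56 log2 units between the nearest arrays. The means were -1.13 ± 0.60 in null and 1.29 ± 0.52 in heterozygous cells (SD, n = 3 each). The log2 fold change was -2.43 (SE 0.38, 95% confidence interval -3.36 to -1.49), 5.38-fold lower in null cells, with a limma adjusted p of 0.0333. This fall or a larger one was found for 63 of the 22749 probes.

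The other Serpinb1c probe gave a similar result. A_52_P493477 read -0.97, -1.35 and -0.76 in null cells, against 0.72, 1.53 and 0.76 in heterozygous cells. Again no null array reached any heterozygous array. The log2 fold change was -2.03 (SE 0.28, 95% confidence interval -2.70 to -1.36), a fall of 4.09-fold, with a limma adjusted p of 0.0231. In fits that left out 1 sample, this probe did not pass without null replicate 1 or 2 (adjusted p = 0.0681 and 0.102) or without heterozygous replicate 1 or 3 (0.0741 and 0.0962). A_51_P212057 did not pass whichever sample was left out, at adjusted p-values of 0.0504 to 0.127.

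Serpinb1a, the mouse paralog most studied as an elastase inhibitor, had 1 probe, A_51_P181297. It read -0.93, -0.61 and -0.36 in null cells, against 0.65, 1.77 and 0.71 in heterozygous cells. The groups were separated by 1.00 log2 units, but heterozygous replicate 2 stood well above the other two heterozygous arrays. The log2 fold change was -1.68 (SE 0.34, 95% confidence interval -2.50 to -0.85), and the limma adjusted p of 0.0628 missed the threshold. Without heterozygous replicate 2 it was -1.31 with an adjusted p of 0.0650.

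Serpinb1b gave opposite answers from its 2 probes. A_52_P430348 read -1.89, -0.97 and -0.76 in null cells, against 0.66, 1.92 and 0.77 in heterozygous cells, a log2 fold change of -2.33 (SE 0.44, limma adjusted p = 0.0519). A_52_P86116 read 0.35, -0.58 and -0.60 in null cells, against -2.09, -2.32 and -1.53 in heterozygous cells, a log2 fold change of 1.71 (SE 0.33, limma adjusted p = 0.0570). The null arrays thus lay below the heterozygous ones with the first probe and above them with the second, and neither probe passed the threshold. Averaged into 1 value for the gene, as a gene-level summary would do, they gave a log2 fold change of -0.31 with an adjusted p of 0.338.

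The disagreement was measured within each array as A_52_P86116 minus A_52_P430348, which removes whatever shifts a whole array. The difference was 2.24, 0.40 and 0.16 on null arrays, against -2.76, -4.24 and -2.30 on heterozygous arrays. All null differences were above 0 and all heterozygous ones below it. The means were 0.93 ± 1.14 and -3.10 ± 1.01 (SD, n = 3 each) in null and heterozygous cells. The change in the difference was 4.03 log2 units (SE 0.72, 95% confidence interval 2.29 to 5.78), with a limma adjusted p of 0.0445. A two-sided exact permutation test gave p = 0.1, the smallest that 3 against 3 samples allow. The probes were selected in opposite directions on these samples, so the separation of the groups is no independent evidence. The adjusted p was 0.0518 after quantile normalization, 0.0521 with robust variances and 0.0730 to 0.135 in the 6 fits that left out a sample.

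The same measure for Serpinb1c, A_52_P493477 minus A_51_P212057, gave 0.81, -0.33 and -0.16 on null arrays and -0.32, -0.36 and -0.20 on heterozygous arrays. These groups overlapped, and the change of 0.40 (95% confidence interval -0.35 to 1.14) had a limma adjusted p of 0.493 and an exact permutation p of 0.3. The null mean was raised by replicate 1, and without that sample the change was 0.05.

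**Figure D2:**
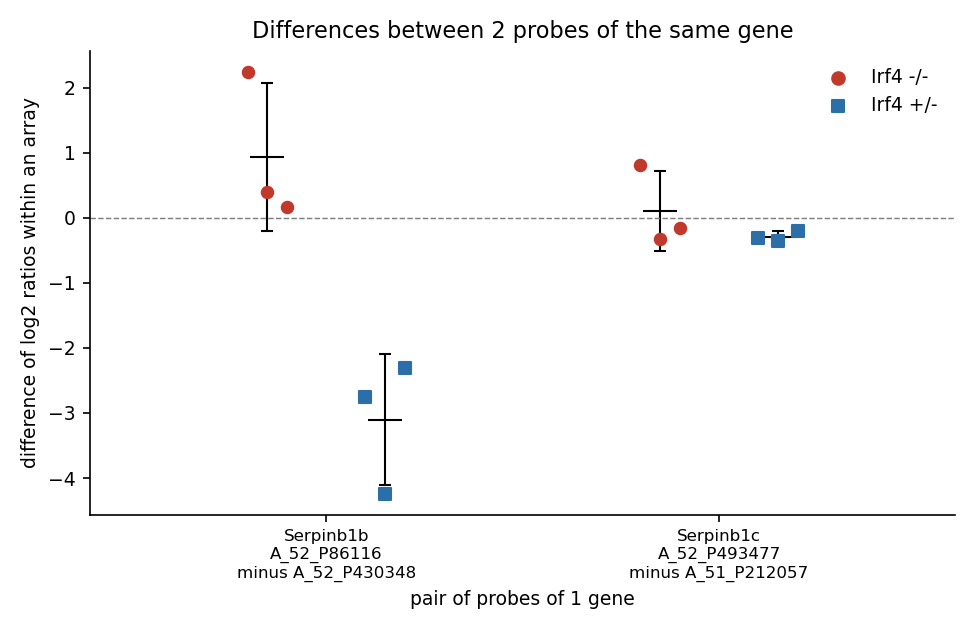
Difference between the log2 ratios of 2 probes of a gene on the same array (vertical axis) for Serpinb1b and Serpinb1c (horizontal axis). Red circles are Irf4 -/- and blue squares Irf4 +/- arrays, with black bars for the mean and SD of 3. The Serpinb1b differences lie between 0.16 and 2.24 in null and between -4.24 and -2.30 in heterozygous cells, whereas those of Serpinb1c overlap.

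Across arrays, Serpinb1b probe A_52_P430348 lay closer to a Serpinb1c probe than to its own partner. Likeness was taken as the root mean square difference of log2 ratios over the 6 arrays after each probe's own mean was removed. It was 0.142 between A_52_P430348 and Serpinb1c probe A_51_P212057, 0.408 between the 2 Serpinb1c probes, and 2.20 between the 2 Serpinb1b probes. For scale, 110 symbols in the authors' deposited table had several listed probes, forming 145 pairs with a median of 0.296. Of these, 24 were closer than the Serpinb1b and Serpinb1c probes, the Serpinb1b pair was the farthest apart, and it was the 1 pair of opposite direction. Serpinb1a was nearest, among the Serpinb1 probes, to Serpinb1c probe A_52_P493477, at 0.286. All these probes were selected for a difference between the genotypes on these same arrays. That alone sets a pair of opposite direction far apart and brings pairs of like change close. These are descriptions on 6 arrays.

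The 4 Serpinb1 probes that were lower in null cells also shared their variation within groups. Heterozygous replicate 2 was the highest array for all 4, and null replicate 3 the highest null array for all 4, while null replicate 1 was the lowest for 3 of the 4. Heterozygous replicate 2 exceeded the next heterozygous array by 1.06 for Serpinb1a and by 1.15 for A_52_P430348. For the Serpinb1c probes A_51_P212057 and A_52_P493477 it did so by 0.85 and 0.77. Larger gaps were found for 1.57%, 1.27%, 2.52% and 3.15% of all probes. That array also had the fewest exact zeros, and the part of this in the results was not tested. Without it, the log2 fold changes of the Serpinb1c probes were -2.13 and -1.77, with limma adjusted p-values of 0.0761 and 0.0421.

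**Figure D3:**
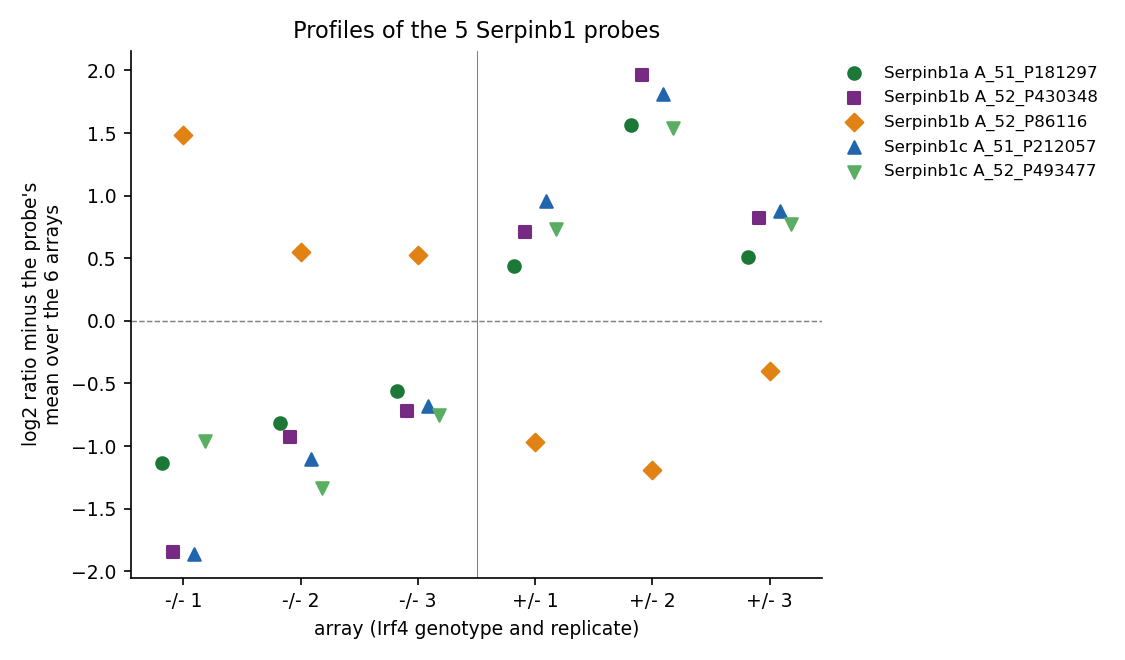
Log2 ratio minus the probe's mean over the 6 arrays (vertical axis) on each array (horizontal axis, Irf4 -/- left of Irf4 +/-) for the 5 Serpinb1 probes, each with its own colour and marker. Heterozygous replicate 2 is the highest array for 4 probes and the lowest for Serpinb1b probe A_52_P86116.

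Serpinc1, the antithrombin gene, had the smallest fall and the lowest standard error of the 7 probes. Probe A_52_P409746 read 0.32, -0.002 and 0.25 in null cells, against 1.19, 1.52 and 1.39 in heterozygous cells. The null arrays were near the level of the reference pool and the heterozygous arrays above it. The means were 0.19 ± 0.17 in null and 1.37 ± 0.17 in heterozygous cells (SD, n = 3 each). The log2 fold change was -1.18 (SE 0.16, 95% confidence interval -1.55 to -0.80), 2.26-fold lower in null cells, with a limma adjusted p of 0.0218. Serpinc1 lies just inside the authors' 2-fold limit. It passed without null replicate 1 (adjusted p = 0.0490) and did not pass in the other fits that left out a sample, at adjusted p-values of 0.0534 to 0.115.

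Serpine2, the gene for protease nexin 1, went the other way but missed the threshold. Probe A_51_P268094 read 1.83, 1.504 and 1.73 in null cells, against 1.21, -0.08 and -0.33 in heterozygous cells. The null arrays were tight, while heterozygous replicate 1 lay within 0.29 of the lowest null array and far above its group. The log2 fold change was 1.42 (SE 0.41, 95% confidence interval 0.43 to 2.41), with a limma adjusted p of 0.130. Without heterozygous replicate 1 it was 1.89 with an adjusted p of 0.0361, so that 1 array decides the call. In the authors' deposited table its unadjusted p is 0.0429, just inside their limit.

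The 3 Serpinb1 genes lie on the chromosome of Irf4. In the RefSeq order of GRCm38.p6, Serpinb1a is the 9th protein-coding gene from Irf4, Serpinb1c the 10th and Serpinb1b the 14th, all on the same side. Serpinb6b, Serpinb9 and Serpinb9b lie between Serpinb1c and Serpinb1b and had no named probe. Of 16 serpin genes within 5 Mb of Irf4, only the 3 Serpinb1 genes were named. Within that window 6 of 70 protein-coding genes were listed by the authors (8.57%), against 645 of 21900 in the whole RefSeq table (2.95%). Only 3 of the 6 are genes other than the Serpinb1 genes. The Serpinb1 genes were chosen here from the authors' list and lie in this window. They were thus sure to be counted as listed, so the share is no independent evidence. The share depended on the window: it was 1 of 10 (10%) within 1 Mb and 9 of 234 (3.85%) within 10 Mb. These are counts without a test, since which genes have a probe is not known.

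The other 3 listed neighbours read higher in null cells. Exoc2, a subunit gene of the exocyst complex for vesicle tethering and the gene next to Irf4, rose with both of its probes. A_51_P404339 read 5.77, 5.63 and 5.57 in null cells, against 3.87, 3.95 and 3.71 in heterozygous cells, a log2 fold change of 1.81 (SE 0.13, limma adjusted p = 0.00545). A_52_P289785 had a log2 fold change of 1.59 (SE 0.13, limma adjusted p = 0.00682). Nqo2, which encodes a quinone reductase, read 1.20, 0.95 and 0.68 in null cells, against -0.37, -0.95 and -0.70 in heterozygous cells, and rose by 1.62 log2 units (limma adjusted p = 0.0208). Pxdc1, listed under an older symbol, had 1.86 and did not pass (limma adjusted p = 0.136). Without 1 sample, A_51_P404339 passed in 6 of 6 fits, A_52_P289785 in 4 and Nqo2 in 1. Over the 9 listed probes in the window 4 were lower and 5 higher in null cells, and 2 fell and 3 rose past the threshold, beside 28.2% lower and 30.6% higher among all 816 probes with a symbol, so nothing particular to the neighbours can be read from these counts. The groups differ in the Irf4 allele together with whatever flanks it on the chromosome, and with this design these cannot be told apart.

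**Figure D4:**
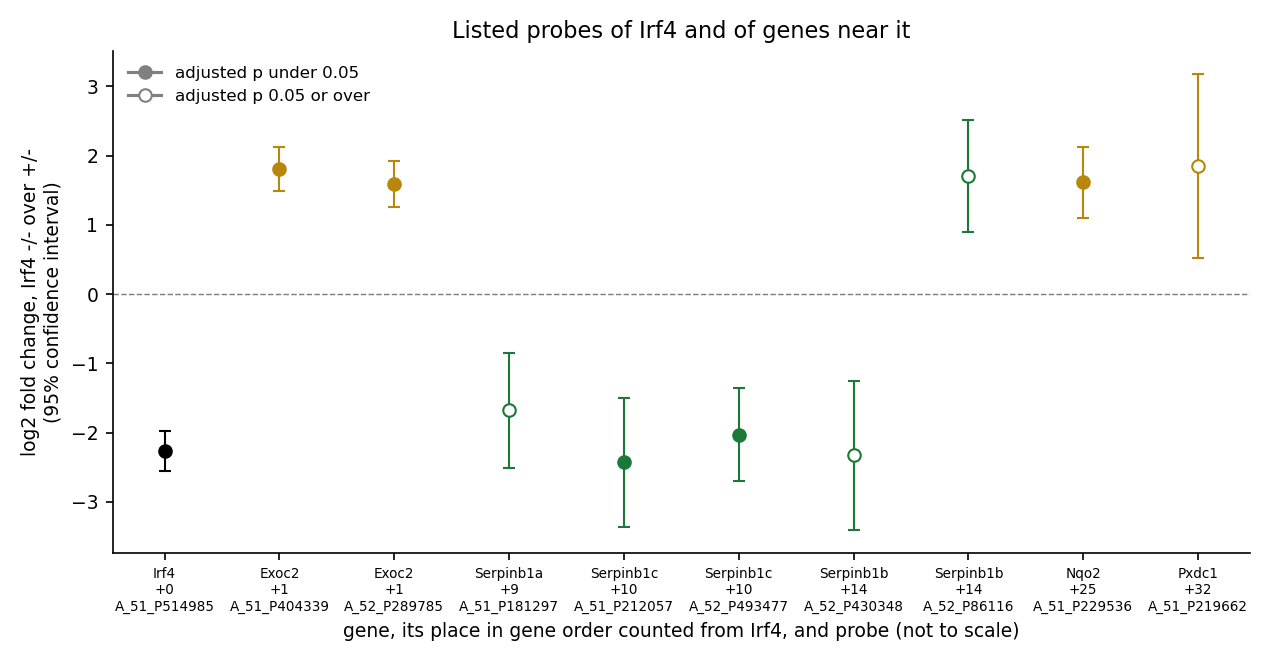
Log2 fold change of Irf4 -/- over Irf4 +/- cells with its 95% confidence interval (vertical axis) for the listed probes of Irf4 and of genes within 5 Mb, in gene order (horizontal axis, not to scale). Filled points have a limma adjusted p under 0.05; green marks Serpinb1 genes, black Irf4 and ochre the other neighbours. Both Exoc2 probes and Nqo2 rose, and both Serpinb1c probes fell.

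Of 57 genes in a serpin family list, 6 had a named probe: the 5 above and Serpind1. Serpind1, which encodes the thrombin inhibitor heparin cofactor II, had a log2 fold change of 2.14 (SE 0.51, limma adjusted p = 0.0915). These serpin probes together thus numbered 5 lower and 3 higher in null cells, of which 3 fell, 0 rose and 5 did not pass. Among all 816 probes with a symbol, 28.2% passed lower and 30.6% higher in null cells. From so few probes no direction of the family can be read.

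Of 47 proteases, receptors and coagulation genes on which serpins act or with which they share a pathway, 5 were named, with 7 probes. Past the threshold, 3 of these probes fell and 3 rose, beside 28.2% and 30.6% of all 816 probes with a symbol. Procr, the receptor for protein C, fell by 4.26 on the log2 scale (limma adjusted p = 0.00238). Cela1, a pancreatic-type elastase gene, fell with both probes, by 1.31 and 1.19 (limma adjusted p = 0.0184 and 0.0289). Pros1, which encodes the anticoagulant protein S, rose with both probes, by 1.28 and 1.02 (limma adjusted p = 0.0189 and 0.0253). F2r, which encodes the thrombin receptor PAR1, rose by 1.02 (limma adjusted p = 0.0221), with means of -1.81 in null and -2.83 in heterozygous cells, both below the reference pool. The remaining probe, of the perforin gene Prf1, was singled out after its values were seen. It had 2.36 and did not pass (limma adjusted p = 0.113). In the 6 fits that left out a sample, Procr passed in 6, the Cela1 probes in 2 and 1, and both Pros1 probes and F2r in 1. Neutrophil elastase, cathepsin G, proteinase 3, thrombin and the plasminogen activators, the textbook targets of these serpins, had no named probe.

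**Figure D5:**
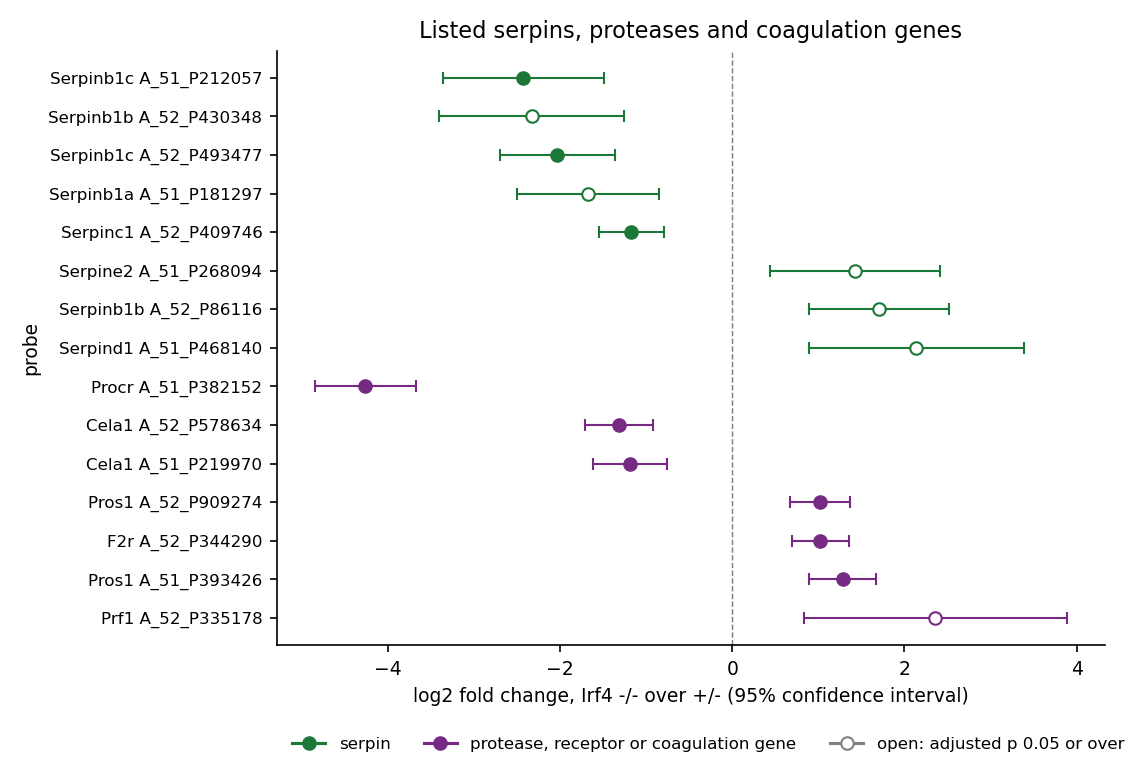
Log2 fold change of Irf4 -/- over Irf4 +/- cells with its 95% confidence interval (horizontal axis) for the 8 serpin probes (green) and each named probe of the protease and coagulation list (purple). Filled points have a limma adjusted p under 0.05. Of the green points, 3 left of 0 are filled and 0 right of it, beside 28.2% and 30.6% of all 816 probes with a symbol.

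Of 20 Th17-associated genes, 11 were named, with 14 probes. Past the threshold, 10 of these fell and 0 rose, and 4 did not pass. Among all 816 probes with a symbol, 28.2% fell and 30.6% rose past it. The median of the 14 was -3.03, beside -1.01 for the 816, which lies at the edge of the authors' 2-fold filter. This list was chosen with earlier results of these data known, so its counts and median are no independent evidence. The log2 fold changes of the Serpinb1c probes, -2.43 and -2.03, were smaller in size than the median of the 14. Those of the cytokine genes with the largest falls were -4.52 for Il9, -3.66 and -2.004 for the probes of Il24, -3.41 and -3.15 for those of Il22 and -3.27 for Il10. The smaller Il24 value was close to that of the second Serpinb1c probe. In the 6 fits that left out a sample, Il9 and Il10 each passed in 5. The Il24 probes passed in 3 and 1 and the Il22 probes in 4 and 2, in the order given.

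The named probes nearest to each serpin probe, by the same root mean square measure over 6 arrays, were as follows. Serpinb1a was nearest to Lsp1 at 0.199, to Ak7 at 0.249 and to Vmn1r65 at 0.251. Serpinb1c probe A_51_P212057, after Serpinb1b, was nearest to Slc4a8 at 0.202 and Klrc3 at 0.240, and Serpinb1b probe A_52_P430348 had the same 2 genes next to Serpinb1c. Serpinb1c probe A_52_P493477 was nearest to Olfm2 at 0.262, Ankrd34b at 0.270 and Lsp1 at 0.271. Lsp1, which encodes a leukocyte actin-binding protein, was thus near both Serpinb1a and Serpinb1c. Serpinb1b probe A_52_P86116 was nearest to Mcoln2, Anp32a and Dnal1, each between 0.255 and 0.256. Serpine2 was nearest to Poglut3 at 0.184, Cpeb4 at 0.255 and Pltp at 0.264, and Serpinc1 to Erc1 at 0.122, Selp at 0.127 and Hey1 at 0.128. All of these were picked from probes selected on the same samples, so a shared genotype difference alone brings them close.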

How the data were processed

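Arrays were 2-colour, with each sample in Cy5 and a common reference pool in Cy3 and no dye swap, per the labels' protocols. The submitters' processing notes name Agilent Feature Extraction 10.7 and Partek. Values deposited for each probe are log2 ratios, sample over reference, and normalized per the file headers, by a method not given in the sources used here. Base and direction between genotypes were checked on the values: group differences and the authors' deposited fold changes, put on the log2 scale, differed by at most 1.03e-05. The authors' deposited table gives unadjusted p-values and signed fold changes, a score that is negative where null cells are lower, from a 1-way test in Partek Genomic Suite 6.6, per the file headers. Dim probes could not be filtered and scan batches could not be tested, since intensities were not used here, and 6 arrays limit the precision.

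All 22749 probes were fitted with limma 3.58.1 (lmFit, eBayes) in R 4.3.3, with no covariates. Adjustment was by Benjamini-Hochberg, with a threshold of 0.05. Within-array probe differences were added as further rows. On simulated data for 22749 probes, the fit recovered 19, 28, 38 and 42 of 50 probes changed by 1, 1.5, 2 and 3 log2 units, with 9 false calls. The simulated noise was normal and independent between probes, and no further probes were changed. Real probes can vary together, so these counts need not hold for the arrays. Every member probe was named; other genes were named by list, by nearness to Irf4 or by likeness, with up to 4 per list and 3 per probe; Prf1 and the cell type markers were named beyond that rule. Symbols were updated through RefSeq (GRCm38.p6), which also gave gene order and promoter windows, matching 4 of the 5 genes. Windows were aligned with Biopython 1.88. Members and lists were chosen with earlier results of these data known. A gene of the lists was left out and is not reported here. Of the lists, B cell, mast cell, platelet, and fibroblast and endothelial markers had 0 named genes. Monocyte markers had 1, Itgax, which had a log2 fold change of -1.32 and did not pass (adjusted p = 0.116).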

Additional observations from a re-analysis of the deposited data

How the results depend on the processing

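The 3 member probes past the threshold, of 7, were also 3 with median centring, quantile normalization, zeros as missing and robust variances, and 1 of them, Serpinc1, with the equal-variance test that the authors' table names. With 1 sample left out 0 to 1 member probe passed, and without heterozygous replicate 1 it was Serpine2 and none of the 3. With the replicate block 0 passed, and the 3 had adjusted p-values of 0.0953 to 0.109. Same-numbered samples deviated with correlations of 0.0973, -0.0126 and -0.0367, and some samples correlated better with another number than with their own, so the numbers were not taken to pair the samples. The 725 of all probes became 76 with the replicate block, 1535 at an adjusted p under 0.1, and 70 to 398 with 1 sample left out. The change in the Serpinb1b probe difference was 4.03 with the replicate block (adjusted p = 0.0968), with robust variances (0.0521) and with the equal-variance test (0.103), and 4.09 after quantile normalization (0.0518), each past the threshold no longer. It was 3.38 to 4.43 with 1 sample left out, at adjusted p-values of 0.0730 to 0.135. Averaging probes turned Serpinb1b probe A_52_P86116 to -0.31, since it merges probes of opposite sign. Listed genes near Irf4 numbered 1 of 10 within 1 Mb, 6 of 70 within 5 Mb and 9 of 234 within 10 Mb. Of 39 other named probes, 0 changed sign. Those of Serpind1, Pxdc1, Klrc3, Dnal1, Poglut3, Cpeb4, Pltp, Prf1, Cd28, Itgax and Cd8a did not pass in the main fit to begin with. Some of these gained the threshold: Klrc3 and Pltp after quantile normalization (limma adjusted p = 0.0465 and 0.0462). Poglut3 and Pltp did so without heterozygous replicate 1 (0.0236 and 0.0361), and Prf1 without heterozygous replicate 2 (0.0455). Of the named probes that passed in the main fit, 24 lost the threshold with the replicate block, which left Irf4, Procr, Il9 and Exoc2 probe A_51_P404339 past it. The equal-variance test took it from 13 of them, and each fit without a sample took it from 9 to 24. Apart from that average, no member probe changed sign in the settings run; since the groups do not overlap, leaving out a sample cannot turn them. Fits without a sample have fewer degrees of freedom. With equally many samples, 70 probes passed without null replicate 2 and 398 without null replicate 3. The cause of the shifts between settings was not tested.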
